A study of Mus musculus with 8 samples.

Results

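The 35 genes described here encode proteins of the cornified envelope of the epidermis, the enzymes that build it, and secreted proteins made by the same cells. They are listed by name, with no threshold on measured values, and earlier results of these data were known when the list was made. All 35 had a row in the count tables of 54838 genes, 34 had counts in at least 2 libraries and were kept, and Sprr3 had 0 counts in all 8 libraries. Of the 34, 29 passed the filter on low counts and were tested. Lce1d, Lce1f, Lce1g, Lce1i and Sprr2d had 2 to 29 reads over the 8 libraries and were not tested. RNA was sequenced from mouse skin epidermis that had been isolated with trypsin, with 2 biological replicates in each of 4 groups. The groups were Ovol1/2 iDKO mice at 52 DPI, control mice at 52 DPI, Ovol1/2 iDKO mice at 25 DPI and control mice at 25 DPI, and iDKO and DPI are left unexpanded, as in the labels. Ovol1 and Ovol2 are zinc finger proteins that control transcription in epithelia. The strain, the age, the alleles, any agent given, any Cre driver and any pooling of animals are not stated in the sources used, so what the control mice share with the iDKO mice is not known.

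The cornified envelope is the shell of crosslinked protein that replaces the plasma membrane of a keratinocyte as it dies and becomes part of the outer barrier of the skin. Periplakin and envoplakin form a scaffold under the membrane, involucrin is laid on it, and transglutaminases then crosslink loricrin, small proline-rich proteins, late cornified envelope proteins and filaggrin-type proteins onto it. Many of these precursors lie next to each other in the genome in the epidermal differentiation complex, and their genes are switched on late, in the granular layer. Corneodesmosin holds the dead cells together until proteases release them.

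The 22 members in the epidermal differentiation complex lay on chromosome 3 between 92080271 and 93399442 (GRCm38), and the other 13 lay on other chromosomes. RefSeq promoter windows (GRCm38.p6), which run from 250 bases before to 50 bases after a gene's start, were at hand for 30 of the 35 members, and Crct1, Kprp, Lce1f, Ppl and Evpl had none. Both strands were searched for TGANTCA, for CCGTTA, the core bound by OVO-family factors, and for TATAAA, the TATA box. TGANTCA, where N is any base, is a looser form of the consensus of AP-1, a factor that acts in keratinocyte differentiation. TGANTCA was in the windows of 12 of the 30 members (40%), against 8.97% of the 27025 genes with a window of the same length. TATAAA was in those of 14 members (46.7%), against 15.7% of genes. CCGTTA was in those of 0 members, against 3.15% of genes. In Flg, Flg2, Sprr1b and Rptn the only match to TGANTCA was TGAATCA or TGATTCA, and not TGACTCA or TGAGTCA. A match is a description of the letters and not a binding site, and no match says only that these letters are not in this window. The 4 windows below belong to the member with the highest level per length, Krtdap, and to Sprr1a, Ivl and Lor, 3 precursors of the complex on chromosome 3 whose values recur in the results. They lie at chr7:30787655-30787954 on the plus strand for Krtdap and on the minus strand at chr3:92485832-92486131 for Sprr1a, chr3:92573686-92573985 for Ivl and chr3:92083093-92083392 for Lor. They are written 5′ to 3′ on the gene's strand, and capitals mark TGANTCA first and TATAAA nearer the start, with 2 matches to TGANTCA in Sprr1a.
Krtdap: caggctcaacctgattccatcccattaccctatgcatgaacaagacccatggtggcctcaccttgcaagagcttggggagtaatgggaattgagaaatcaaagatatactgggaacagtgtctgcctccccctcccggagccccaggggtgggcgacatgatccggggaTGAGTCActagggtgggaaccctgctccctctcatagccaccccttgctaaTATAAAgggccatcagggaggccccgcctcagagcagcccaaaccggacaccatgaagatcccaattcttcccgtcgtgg
Sprr1a: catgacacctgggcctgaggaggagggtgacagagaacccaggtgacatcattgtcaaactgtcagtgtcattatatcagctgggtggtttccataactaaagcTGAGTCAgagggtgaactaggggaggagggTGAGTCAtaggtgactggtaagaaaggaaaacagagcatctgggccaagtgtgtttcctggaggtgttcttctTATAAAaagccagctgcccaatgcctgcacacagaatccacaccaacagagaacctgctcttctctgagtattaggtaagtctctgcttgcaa
Ivl: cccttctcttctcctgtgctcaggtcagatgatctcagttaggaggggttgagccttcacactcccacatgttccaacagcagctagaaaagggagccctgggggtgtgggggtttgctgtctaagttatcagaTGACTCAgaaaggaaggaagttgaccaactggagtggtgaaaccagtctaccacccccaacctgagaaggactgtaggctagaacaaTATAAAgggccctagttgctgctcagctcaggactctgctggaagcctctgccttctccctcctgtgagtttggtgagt
Lor: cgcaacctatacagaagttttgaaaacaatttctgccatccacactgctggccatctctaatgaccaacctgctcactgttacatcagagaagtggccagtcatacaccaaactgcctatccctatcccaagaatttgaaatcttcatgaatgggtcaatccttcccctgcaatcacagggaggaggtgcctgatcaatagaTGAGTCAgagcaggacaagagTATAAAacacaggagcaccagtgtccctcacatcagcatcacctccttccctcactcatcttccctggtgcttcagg
The TATAAA match began at position -30 from the start in Krtdap, -43 in Sprr1a, -29 in Ivl and -27 in Lor, and TGANTCA at -81 in Krtdap, -116 in Ivl and -48 in Lor.

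Library totals were 9824307 to 50711381 counts. The replicate 2 libraries held 95.4% to 95.7% of their stranded counts on one strand and the replicate 1 libraries 49.8% to 49.97%, and the leading principal component over all tested genes (56.5% of variance) separated the replicate numbers. Xist stood at 131 to 1139 CPM at 52 DPI and 0.119 to 0.342 CPM at 25 DPI, so sex and time cannot be told apart. Counts of the targeted genes did not show the label. In the libraries labelled iDKO, Ovol1 had 99.0 and 193.5 CPM at 52 DPI against 62.7 and 157.2 in control, and 148.1 and 204.0 CPM at 25 DPI against 134.9 and 36.3. Ovol2 was also higher in the library labelled iDKO of every pair, by 0.06 to 0.84 on the log2 scale, and counts over a whole gene do not show the loss of single exons. Below, iDKO libraries are the libraries labelled iDKO. Zeb1, a repressor of epithelial genes, had 14.4 to 35.3 CPM in the 4 libraries labelled iDKO and 2.04 to 3.33 CPM in the 4 control libraries. Markers of other cell types, summed per list in CPM, were uneven. Of these lists 8 of 8 T cell, 4 of 4 Langerhans cell, 6 of 6 sebocyte, 6 of 6 melanocyte, 5 of 5 erythroid, 6 of 6 dermal fibroblast and 7 of 13 hair markers passed the filter on low counts. Control replicate 1 at 25 DPI held the most T cell (703.3), melanocyte (399.2) and erythroid (110.9) marker counts, against 69.7 to 415.8, 49.6 to 78.7 and 0.628 to 18.3 in the other 7 libraries. The sum of hair shaft and inner root sheath markers was highest in iDKO replicate 2 at 52 DPI (239.5, against 11.7 to 24.8). There Krt71 had 81.3, Krt25 59.4 and Krt28 42.4 CPM. Not all hair markers were raised there: Krt31 and Krt33a had 0.458 CPM each, against 2.29 and 2.09 in control replicate 1 at 25 DPI. Langerhans cell markers were at 1143 and 954.4 CPM in iDKO at 52 DPI against 683.4 and 490.4 in control, and at 711.2 and 481.5 CPM in iDKO at 25 DPI against 1600 and 192.8 in control. The sebocyte sum was also highest in control replicate 1 at 25 DPI, at 1291 CPM, against 374 to 1063 in the other 7, but its genes differed. In that library Mgst1 (602.2 CPM), Plin2 (291.4) and Elovl3 (35.1) were the highest of the 8 libraries. Fasn (64.1 CPM) was the lowest there, and Scd1 (286.7) and Awat2 (11.2) were not the highest. Dermal fibroblast markers were at 116.6 and 159.6 CPM in iDKO replicate 2 at 52 and 25 DPI and at 7.91 to 51.9 in the other 6. Dcn alone had 84.4 of the 116.6 CPM in iDKO replicate 2 at 52 DPI. The part of these lists in the results below was not tested, and in bulk epidermis fewer cells of a type and less RNA per cell cannot be told apart.

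Per kilobase of exon, the members spanned from 1663 CPM for Krtdap to 0.0155 for Lce1g among those with counts, as means over the 8 libraries. Next in the order were Dmkn at 603.5, Sprr1a at 262.9, Scel at 156.8, Sbsn at 95.6, Ppl at 84.2 and Evpl at 61.9 CPM per kilobase. Ivl stood at 14.3 and Lor at 4.86, and the lowest levels included Flg2 at 0.159, Flg at 0.0195 and the late cornified envelope genes, of which Lce1m was the highest at 1.81. For scale, the basal keratins Krt14 and Krt5 had 8033 and 5991 CPM per kilobase and the suprabasal keratins Krt10 and Krt1 had 1527 and 377.6. These keratins met the label of epidermis, while Krt2, also listed with the spinous markers, had 1.34 CPM per kilobase. A count of 0 allows up to 3 counts, which is 0.0596 to 0.342 CPM depending on the library and covers counting error only. Neighbours in this order often overlapped: Ppl ranged from 19.2 to 169 CPM per kilobase over the libraries and Evpl from 12.2 to 104.7, and Scel was the steadiest of the tested members, with 1.58 times between its highest and its lowest library.

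**Figure D1:**
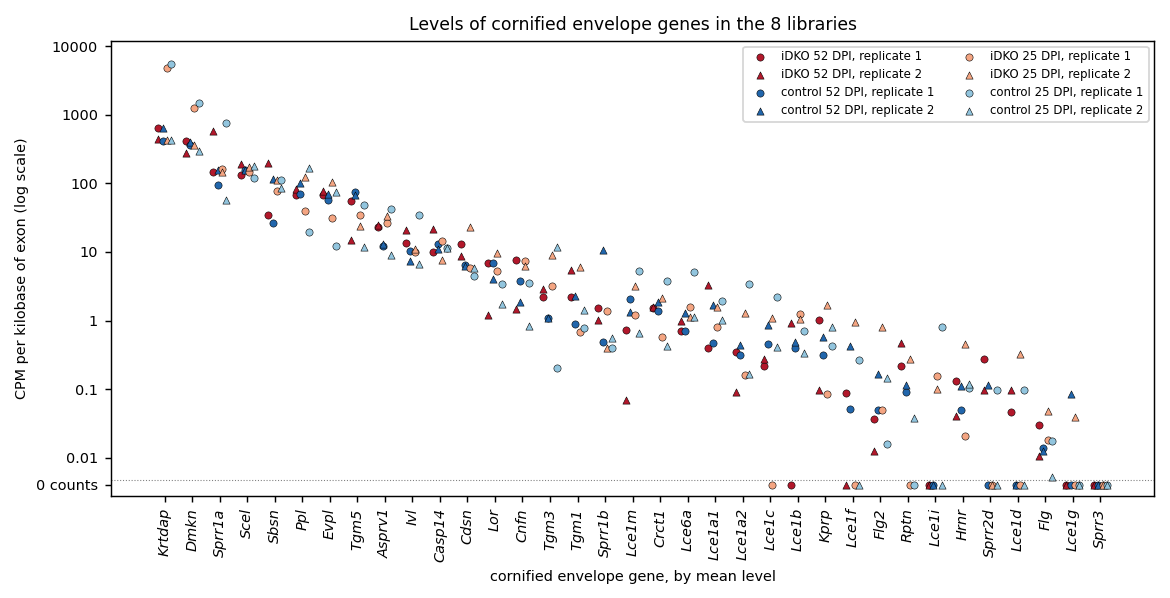
Level of each cornified envelope gene in CPM per kilobase of exon (log scale) in the 8 libraries, ordered by mean level; points on the lowest line are libraries with 0 counts. Krtdap and Dmkn stand highest in the replicate 1 libraries at 25 DPI of both genotypes, and Lce genes, Flg and Flg2 lie at the low end.

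No member passed the test in any comparison. With edgeR's quasi-likelihood test and an adjusted p under 0.05, 0 of 29 members were called for iDKO against control at 52 DPI, at 25 DPI and across both times, for the difference between the effects at 52 and 25 DPI, and for 52 against 25 DPI in iDKO and in control, against 0% of the 17839 tested genes each time. DESeq2 also called 0 members, against 0.00561% of genes at 52 DPI, 0.0112% at 25 DPI, 0.0448% across both times, 0% for the difference, 0.0617% for time in iDKO and 0.0729% for time in control. At an unadjusted p under 0.05 edgeR gave 0 members at 52 DPI (0.802% of genes), 0 at 25 DPI (0.42%), 1 across both times (0.729%), which was Cdsn, 0 for the difference (0.779%), 1 for time in iDKO (1.67%), which was Flg2, and 1 for time in control (1.51%), which was Sprr1b. These p-values use a spread that all groups share, estimated from 2 libraries per group. For a comparison of 2 against 2 libraries, an exact permutation p cannot go below 0.333 (two-sided). A p that misses the threshold does not show that the values did not differ.

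At 52 DPI 17 members were higher and 12 lower in the libraries labelled iDKO, with a median log2 fold change of 0.13, against -0.01 over all tested genes. At 25 DPI 15 were higher and 14 lower, with a median of 0.04 against -0.03 over all genes. The count at 25 DPI turned on single libraries. Without control replicate 1 at 25 DPI 25 of 30 members were higher, with a median of 1.30, and without iDKO replicate 2 at 25 DPI 11 were higher and 18 lower, with a median of -0.68. At 52 DPI 23 of 30 were higher without control replicate 2 and 14 of 30 without either control replicate 1 or iDKO replicate 1.

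Within pairs of one time and one replicate number, the members were mostly higher in iDKO in 1 pair, the replicate 2 pair at 25 DPI, and nearer to the share over all genes in the other 3. In the replicate 2 pair at 25 DPI 24 of the 29 members were higher in iDKO, against 48.7% of all tested genes, with a median log2 difference of 1.21 in CPM. In the replicate 1 pair at 25 DPI 12 were higher, 16 lower and 1 level, against 49.9% of genes higher, with a median of -0.23. The 2 pairs at 52 DPI had 19 members higher (50.4% of genes) with a median of 0.23 in replicate 1, and 13 higher (46.4%) with a median of -0.25 in replicate 2. The split was wider among the 16 tested members on chromosome 3, whose medians were 0.14 and -0.82 in the replicate 1 and 2 pairs at 52 DPI, and -1.73 and 1.62 in those at 25 DPI. The 13 members on other chromosomes had medians of 0.29 to 0.38 in all 4 pairs. The median over all tested genes was within 0.03 of 0 in every pair.

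**Figure D2:**
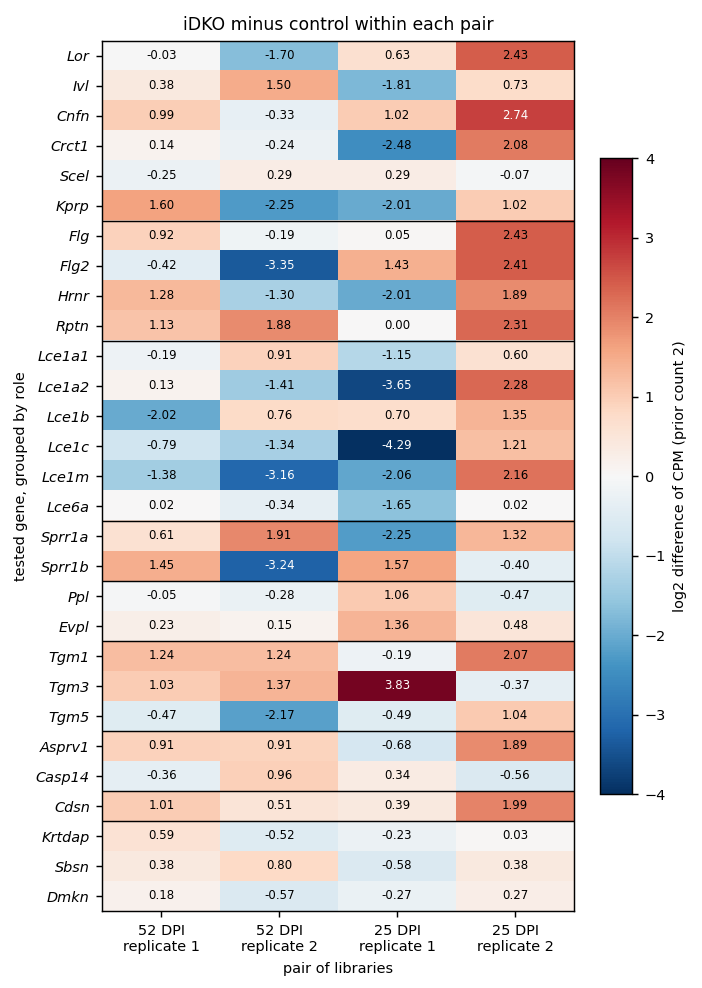
Log2 difference of CPM, iDKO minus control, for the 29 tested members (rows, grouped by role) in the 4 pairs of libraries (columns). Red is higher in iDKO; the replicate 2 pair at 25 DPI is red for 24 members, and Cdsn and Evpl are red in all 4 columns.

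Among the structural precursors, Ivl encodes involucrin, an early precursor on which others are built. Ivl had 25.9 and 40.2 CPM in the iDKO libraries at 52 DPI against 19.8 and 14.2 in control, and 19.1 and 21.0 CPM in iDKO at 25 DPI against 66.9 and 12.6 in control. The groups did not overlap at 52 DPI, where iDKO was higher, and overlapped at 25 DPI, where control replicate 1 was the highest of all 8. Its log2 fold change was 0.96 (SE 0.75, edgeR adjusted p = 1.00) at 52 DPI and -0.99 (SE 0.75) at 25 DPI, which turned to 0.63 without control replicate 1 at 25 DPI.

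Lor encodes loricrin, the most abundant protein of the mature envelope. Lor had 12.1 and 2.16 CPM in iDKO libraries at 52 DPI against 12.4 and 7.21 in control, and 9.35 and 16.9 CPM in iDKO at 25 DPI against 6.01 and 3.06 in control. Both iDKO libraries stood below their paired control at 52 DPI and above both controls at 25 DPI. The difference between the effects at 52 and 25 DPI was -1.99 (SE 1.22, edgeR adjusted p = 1.00), with effects of -0.45 (SE 0.85) and 1.54 (SE 0.87). Without iDKO replicate 2 at 52 DPI the effect at 52 DPI was 0.31, so its sign rests on that library.

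Scel encodes sciellin, a precursor of the envelope. Scel had 328.1 and 478.4 CPM in iDKO at 52 DPI against 389.5 and 392.0 in control, and 369.0 and 428.7 CPM in iDKO at 25 DPI against 302.5 and 451.2 in control. All groups overlapped, and the effect across both times was 0.06 (SE 0.32, edgeR adjusted p = 1.00). Of the other precursors, Cnfn, which encodes cornifelin, was higher in both iDKO libraries at 25 DPI, with 5.25 and 4.46 CPM against 2.55 and 0.596 in control, while Crct1 and Kprp overlapped at both times at 0.228 to 4.57 CPM.

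Transcripts for the proteins of the S100-fused type, relatives of filaggrin that fill the cornified cell, were rare. Flg2 had 0.754 and 0.262 CPM in iDKO at 52 DPI against 1.04 and 3.45 in control, and 1.03 and 16.5 CPM in iDKO at 25 DPI against 0.327 and 3.04 in control. It was lower in iDKO in both pairs at 52 DPI and higher in both at 25 DPI, and iDKO replicate 2 at 25 DPI was far above the rest. The difference between these effects was -4.45 (SE 2.10, edgeR adjusted p = 1.00), and -1.37 without iDKO replicate 2 at 25 DPI. Being lower in both pairs at 52 DPI and higher in both at 25 DPI was shared by 2 of 29 members, Flg2 and Lor, against 8.4% of all tested genes, and the opposite by 0 members, against 8.06%.

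Hrnr, which encodes hornerin, had 1.48 and 0.458 CPM in iDKO at 52 DPI against 0.556 and 1.25 in control, and 0.228 and 5.15 CPM in iDKO at 25 DPI against 1.18 and 1.33 in control. Its groups overlapped at both times. Rptn, which encodes repetin, had 0.911 and 1.96 CPM in iDKO at 52 DPI against 0.371 and 0.470 in control. At 25 DPI it had 0 and 1.13 CPM in iDKO against 0 and 0.159 in control. The effect on Rptn across both times was 2.16 (SE 1.09, edgeR adjusted p = 1.00), from 114 reads over the 8 libraries, and 0.99 without iDKO replicate 2 at 25 DPI. Flg, the gene of filaggrin itself, was between 0.0993 and 0.907 CPM, from 69 reads, and a processed pseudogene, Rplp0-ps1, lies within it on the same strand.

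The late cornified envelope proteins, small crosslinked proteins of the outermost layers, had 10 genes among the members, 6 of them tested. Lce1m had 0.691 and 0.0654 CPM in iDKO at 52 DPI against 1.93 and 1.25 in control, and 1.14 and 3.05 CPM in iDKO at 25 DPI against 5.03 and 0.616 in control. It was below its paired control in 3 of 4 pairs, and the groups did not overlap at 52 DPI, with an effect of -2.0 (SE 1.33, edgeR adjusted p = 1.00) that ranged over -4.50 to -1.20 with single libraries left out. Lce1c was also lower in both iDKO libraries at 52 DPI, at 0.157 and 0.196 CPM against 0.334 and 0.627 in control. Lce6a had 0.565 and 0.785 CPM in iDKO at 52 DPI against 0.556 and 1.02 in control, and 1.26 and 0.907 CPM in iDKO at 25 DPI against 4.12 and 0.893 in control. Lce1a1 had 0.283 and 2.29 CPM in iDKO at 52 DPI against 0.334 and 1.18 in control, and 0.570 and 1.13 CPM in iDKO at 25 DPI against 1.37 and 0.715 in control. Both overlapped at both times. The transcripts of Lce1a1 and Lce1a2 were 88.0% identical, so reads shared between such copies could not be assigned with certainty.

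In the replicate 2 libraries, reads on the opposite strand outnumbered those on the gene's own strand for Lce1a1 and Lce6a. Over these 4 libraries, the share of reads on the gene's own strand was 18.8% for Lce1a1, 21.1% for Lce6a and 68.2% for Lce1b, and it was at least 92.3% for every other member with reads. No gene of the annotation used here (GENCODE M21) overlaps these 3. In the replicate 2 pair at 52 DPI Lce1a1 had 0 reads on its own strand in iDKO against 5 in control, and 35 on the other strand in iDKO against 10 in control. The log2 difference in that pair was 0.91 without regard to strand and -2.49 on the own strand, and for Lce1b it was 0.76 and -1.51. The replicate 1 libraries do not allow this split. Annotated genes overlap Hrnr, Rptn, Tgm1, Tgm3 and Tgm5 on the opposite strand and Flg, Rptn and Sbsn on the same strand. For the overlaps on the opposite strand, the own-strand share in the replicate 2 libraries was 99.1% to 100%. Reads in these overlaps cannot be assigned with certainty in the replicate 1 libraries, nor can those in the same-strand overlaps in any library.

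**Figure D3:**
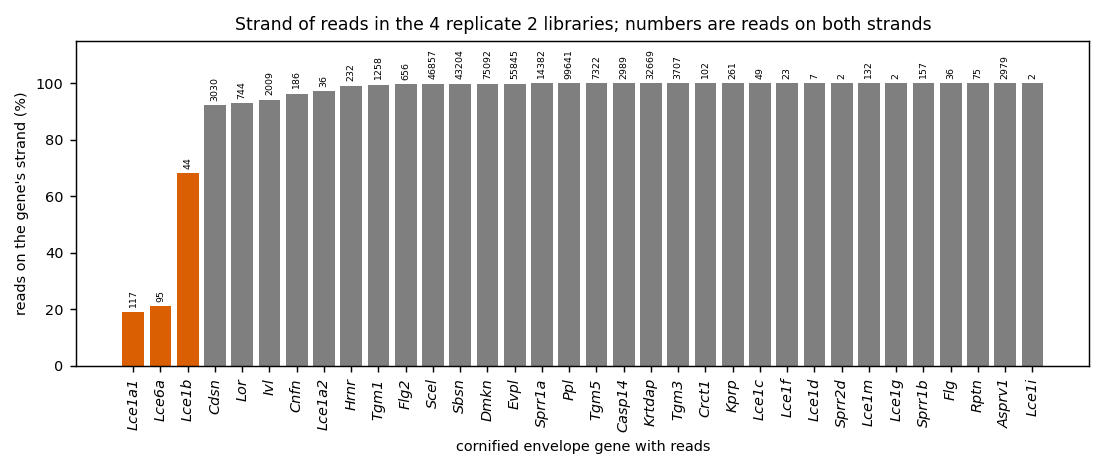
Share of reads on the gene's own strand (%) for each member with reads, over the 4 replicate 2 libraries; the small numbers are reads on both strands. Lce1a1, Lce6a and Lce1b (orange) stand apart, at 18.8%, 21.1% and 68.2%.

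Small proline-rich proteins bridge other envelope proteins, and Sprr1a is known to be raised in stressed epidermis. Sprr1a had 116.2 and 473.3 CPM in iDKO at 52 DPI against 76.1 and 125.6 in control, and 129.1 and 116.3 CPM in iDKO at 25 DPI against 612.4 and 46.4 in control. It was higher in iDKO in 3 of 4 pairs and lower in the replicate 1 pair at 25 DPI, where control was the highest of the 8 libraries, and the groups overlapped at both times. The effects were 1.55 (SE 1.13, edgeR adjusted p = 1.00) at 52 DPI and -1.42 (SE 1.13) at 25 DPI. The first was 0.21 without iDKO replicate 2 at 52 DPI, and the second turned to 1.36 without control replicate 1 at 25 DPI. The 2 libraries with the most Sprr1a were control replicate 1 at 25 DPI and iDKO replicate 2 at 52 DPI. They also had the most counts of T cell markers (703.3 and 415.8 CPM summed), erythroid markers (110.9 and 18.3) and hair markers (24.8 and 239.5). The part of these cell types in this was not tested.

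Sprr1b had 1.26 and 0.850 CPM in iDKO at 52 DPI against 0.408 and 8.78 in control, and 1.14 and 0.327 CPM in iDKO at 25 DPI against 0.327 and 0.457 in control. Control replicate 2 at 52 DPI stood above the other 7 libraries, and without it the effect at 52 DPI was 1.38, against -2.10 (SE 1.34) with it. Sprr2d had at most 0.188 CPM, and 4 of 8 libraries had counts.

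The plakins Ppl and Evpl encode periplakin and envoplakin, the scaffold under the membrane. Evpl had 426.5 and 499.0 CPM in iDKO at 52 DPI against 364.9 and 449.2 in control, and 199.8 and 668.5 CPM in iDKO at 25 DPI against 77.9 and 477.7 in control. It was higher in iDKO in all 4 pairs, by 0.15 to 1.36 on the log2 scale, but the groups overlapped at both times because the replicate 1 libraries stood below the replicate 2 libraries. The effect across both times was 0.41 (SE 0.60, edgeR adjusted p = 1.00), and it turned to -0.05 without iDKO replicate 2 at 25 DPI. Being higher in all 4 pairs held for 2 of 29 members, Evpl and Cdsn, against 6.73% of all tested genes, and being lower in all 4 held for 0 members, against 6.7%.

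Ppl, whose product pairs with envoplakin, differed from Evpl in the sign of the genotype difference in 3 of 4 pairs. Both genes were lowest in control replicate 1 at 25 DPI. Ppl had 465.8 and 579.0 CPM in iDKO at 52 DPI against 483.7 and 700.7 in control, and 276.3 and 839.9 CPM in iDKO at 25 DPI against 132.4 and 1165 in control. It was lower in iDKO in 3 of 4 pairs, with an effect across both times of -0.20 (SE 0.65, edgeR adjusted p = 1.00), which turned to 0.63 without control replicate 2 at 25 DPI. Scel, Ppl and Evpl were lower in all 4 replicate 1 libraries than in any replicate 2 library, which held for 18.5% of all tested genes.

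Transglutaminases crosslink the envelope. Tgm1, the membrane-bound enzyme of the granular layer, had 6.88 and 17.3 CPM in iDKO at 52 DPI against 2.85 and 7.29 in control, and 2.17 and 19.2 CPM in iDKO at 25 DPI against 2.48 and 4.49 in control. It was higher in iDKO in 3 of 4 pairs, and the groups overlapped at both times. The effect across both times was 1.44 (SE 0.69, edgeR adjusted p = 1.00) and 0.59 without iDKO replicate 2 at 25 DPI. An antisense gene, Gm49067, overlaps Tgm1. In iDKO replicate 2 at 52 DPI the count without regard to strand was 265 against 286 reads on the gene's own strand, and it was also the smaller of these counts in the other 3 replicate 2 libraries.

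Tgm3, a cytosolic enzyme of the epidermis and of hair, had 9.17 and 11.9 CPM in iDKO at 52 DPI against 4.45 and 4.55 in control, and 13.2 and 37.4 CPM in iDKO at 25 DPI against 0.850 and 48.4 in control. The groups were apart at 52 DPI, with an effect of 1.23 (SE 1.35, edgeR adjusted p = 1.00). At 25 DPI the control libraries lay on both sides of the iDKO libraries. Tgm5, another epidermal transglutaminase, lay on the other side at 52 DPI, with 172.4 and 46.4 CPM in iDKO against 238.6 and 209.9 in control. At 25 DPI Tgm5 had 110.5 and 75.5 CPM in iDKO against 154.8 and 36.7 in control. Its effect at 52 DPI was -1.03 (SE 0.84, edgeR adjusted p = 1.00), and -0.37 without iDKO replicate 2 at 52 DPI.

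Asprv1 and Casp14 encode proteases that process filaggrin. Asprv1 had 35.7 and 38.4 CPM in iDKO at 52 DPI against 19.0 and 20.5 in control, and 40.8 and 51.8 CPM in iDKO at 25 DPI against 65.6 and 14.0 in control. At 52 DPI the replicates of each group lay close together and the groups apart, with log2 differences of 0.91 in both pairs. At 25 DPI control held both the highest and the lowest library, and the spread shared by all groups gave an effect at 52 DPI of 0.91 (SE 0.69, edgeR adjusted p = 1.00). Casp14 had 24 and 51.7 CPM in iDKO at 52 DPI against 30.7 and 26.6 in control, and 34.0 and 18.2 CPM in iDKO at 25 DPI against 26.9 in each control library, and overlapped at both times.

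Cdsn encodes corneodesmosin, the adhesive protein of the corneodesmosome. Cdsn had 34.5 and 23.6 CPM in iDKO at 52 DPI against 17.1 and 16.5 in control, and 15.7 and 61.1 CPM in iDKO at 25 DPI against 12.0 and 15.4 in control. It was the one tested member whose iDKO libraries stood above both controls at both times. The effect was 0.79 (SE 0.66) at 52 DPI, 1.49 (SE 0.67) at 25 DPI and 1.14 (SE 0.45, edgeR adjusted p = 1.00) across both times, and without iDKO replicate 2 at 25 DPI these last 2 values were 0.21 and 0.57. Groups that did not overlap, with iDKO higher, were found at 52 DPI for 5 of 29 members (Ivl, Rptn, Tgm3, Asprv1 and Cdsn), against 11.9% of all tested genes. At 25 DPI they were found for 5 (Lor, Cnfn, Flg, Lce1b and Cdsn), against 5.39%. With iDKO lower they were found at 52 DPI for 4 (Flg2, Lce1c, Lce1m and Tgm5), against 10.2%, and at 25 DPI for 0, against 5.15%. Some of these separations rest on few reads. At 25 DPI Flg had 3 and 25 reads in iDKO against 5 and 5 in control, and Lce1b 7 and 19 against 7 and 11. At 52 DPI Lce1c had 5 and 3 reads in iDKO against 9 and 8 in control.

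**Figure D4:**
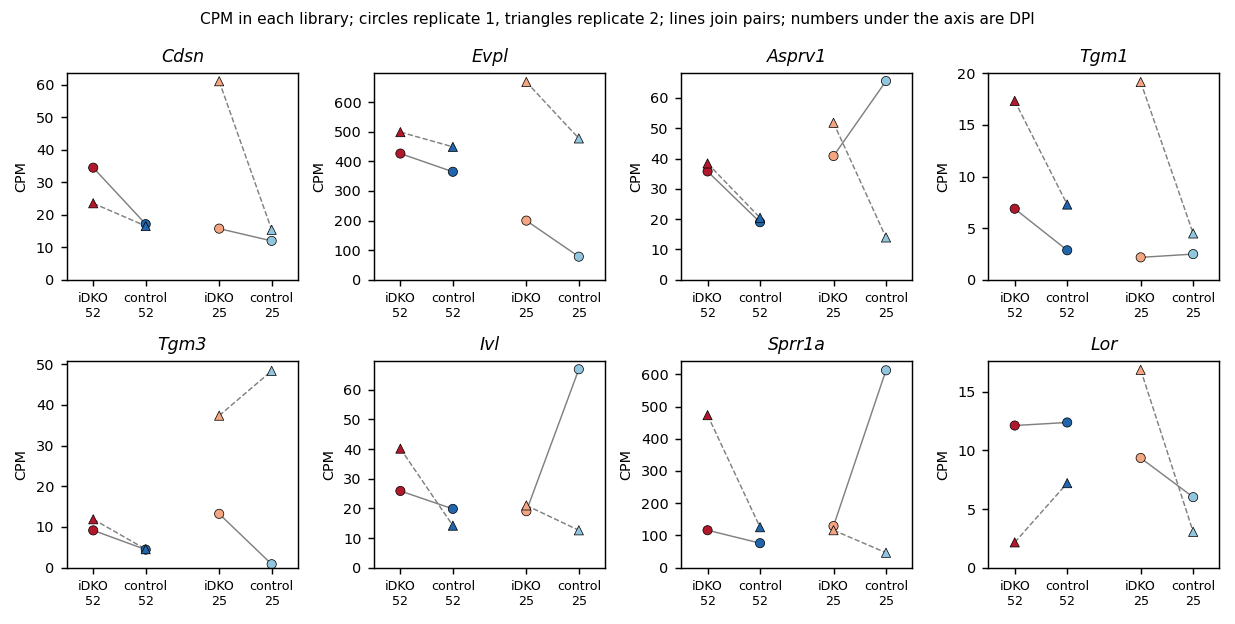
CPM of 8 members in each library, with lines joining the iDKO and control library of a pair, circles for replicate 1 and triangles for replicate 2. Cdsn and Evpl are higher at the iDKO end of every line, Asprv1 and Tgm3 separate at 52 DPI, and control replicate 1 at 25 DPI is the highest library for Ivl and Sprr1a.

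Pairing the libraries by replicate number within each time narrowed some errors but called no member. With that block edgeR gave 6 members at an unadjusted p under 0.05 at 25 DPI, against 6.51% of genes, and these were Evpl, Cnfn, Cdsn, Flg2, Lor and Rptn. All 6 were higher in iDKO, with adjusted p of 0.723 to 0.731. Rptn had 0 reads in both replicate 1 libraries at 25 DPI, so its effect rests on 31 against 8 reads in the replicate 2 pair. For Flg2 the reads at 25 DPI were 9 against 5 in the replicate 1 pair and 455 against 153 in the replicate 2 pair. Evpl then had an effect at 25 DPI of 0.92 (SE 0.28) and Cnfn of 1.98 (SE 0.65). At 52 DPI the block gave 1 member, Tgm5, with an effect of -1.32 (SE 0.51), against 4.28% of genes. Across both times it gave 3, Cdsn, Rptn and Tgm1, against 4.02%, with an effect on Cdsn of 0.99 (SE 0.28, adjusted p = 0.996). For the difference between the times it gave 2, Flg2 and Lor, against 6.26%. DESeq2 with the same block called 0 members by adjusted p, against 0.196% of genes at 52 DPI, 0.538% at 25 DPI, 0.392% across both times and 0.213% for the difference.

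Sbsn, Dmkn and Krtdap encode suprabasin, dermokine and keratinocyte differentiation-associated protein, which are secreted by stratified epithelia, and lie side by side on chromosome 7 between 30751471 and 30791097. Krtdap had 428.4 and 298.3 CPM in iDKO at 52 DPI against 284.3 and 428.0 in control, and 3226 and 294.7 CPM in iDKO at 25 DPI against 3784 and 288.3 in control. The replicate 1 libraries at 25 DPI of both genotypes stood far above the other 6. Dmkn showed the same libraries on top, with 897.8 and 599.7 CPM in iDKO at 52 DPI against 794.7 and 889.7 in control, and 2707 and 787.6 CPM in iDKO at 25 DPI against 3253 and 652.4 in control. Sbsn, their neighbour, had 125.3 and 728.7 CPM in iDKO at 52 DPI against 96.6 and 419.8 in control, and 276.4 and 402.5 CPM in iDKO at 25 DPI against 412.3 and 309.9 in control. Its highest library was another one, iDKO replicate 2 at 52 DPI. The genotype effects across both times were -0.09 (SE 0.86) for Krtdap, -0.16 (SE 0.59) for Dmkn and 0.32 (SE 0.64) for Sbsn, each with an edgeR adjusted p of 1.00. Without control replicate 1 at 25 DPI those of Krtdap and Dmkn turned to 0.90 and 0.40, and without iDKO replicate 2 at 52 DPI that of Sbsn turned to -0.44.

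The share of all counts that fell on the 35 genes was 0.357% and 0.414% in iDKO at 52 DPI against 0.310% and 0.366% in control, and 0.664% and 0.372% in iDKO at 25 DPI against 0.806% and 0.354% in control. The 95% binomial interval (Wilson) of the highest, 0.801% to 0.810%, covers counting error only. In the 2 replicate 1 libraries at 25 DPI Dmkn, Krtdap and Ppl, the 3 members with the most counts, held 83.5% of the members' counts in iDKO and 80.2% in control, and in the other 6 libraries 37.9% to 59.1%. Without these 3 members the share was 0.152% and 0.257% in iDKO at 52 DPI against 0.140% and 0.168% in control. At 25 DPI it was then 0.11% and 0.188% in iDKO against 0.159% and 0.145% in control.

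**Figure D5:**
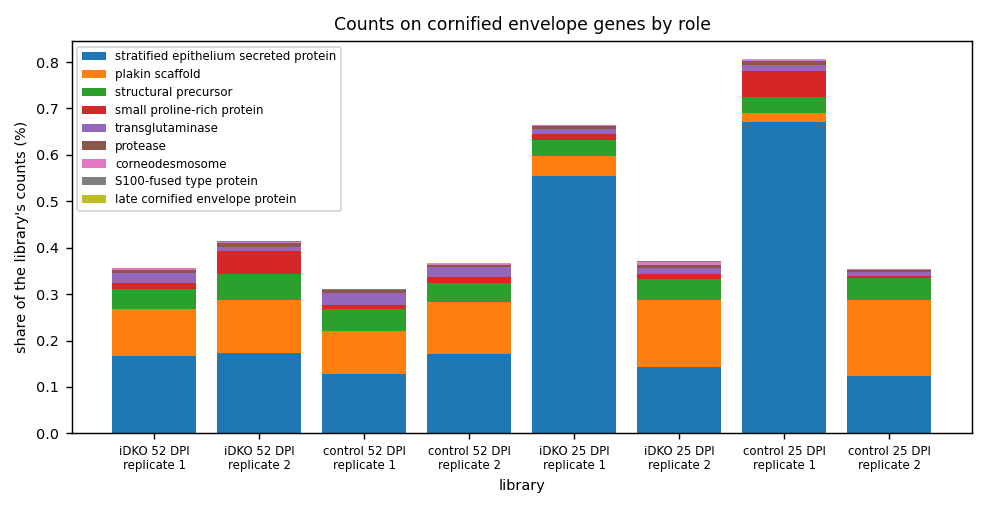
Share of each library's counts (%) on the cornified envelope genes, stacked by role. The secreted proteins (Krtdap, Dmkn, Sbsn) make up most of the bar in the replicate 1 libraries at 25 DPI, whose totals are 0.664% in iDKO and 0.806% in control.

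Between times, 12 members were higher and 17 lower at 52 DPI in each genotype, with a median log2 fold change of -0.41 in iDKO against -0.12 over all genes, and of -0.34 in control against -0.14. These counts turned on single libraries. Without iDKO replicate 2 at 25 DPI 17 were higher and 12 lower in iDKO, with a median of 0.16. Without control replicate 1 at 25 DPI 21 of 30 were higher in control, with a median of 0.37. In iDKO the 52 DPI libraries stood above both 25 DPI libraries for 1 of 29 members, Ivl, against 11.6% of genes. They stood below both for 6 (Flg2, Lce1b, Lce1m, Lce6a, Tgm3 and Asprv1), against 8.75%. In control they stood above for 4 (Lor, Rptn, Tgm5 and Cdsn), against 11% of genes, and below for 0, against 9.7%. Flg2 had the lowest p in iDKO, with a change of -4.07 (SE 1.60, edgeR adjusted p = 1.00) and of -1.0 without iDKO replicate 2 at 25 DPI. Sprr1b had the lowest in control, with 3.51 (SE 1.43, edgeR adjusted p = 1.00) and 0.07 without control replicate 2 at 52 DPI.

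Other genes of the same program were read from lists of their own, and edgeR called 0 of them in any comparison, with or without the block within time. At an unadjusted p under 0.05 edgeR gave 2 of 13 further envelope genes at 52 DPI (Tgm2 and Sprr4), against 0.802% of all tested genes, 0 at 25 DPI (0.42%) and 1 across both times (0.729%), which was Tchhl1. It gave 0 of 22 transcription factors in these 3 comparisons, and 0, 1 (Alox12b) and 1 (Pnpla1) of 11 granular layer genes. Of 35 further envelope and epidermal differentiation complex genes 13 were tested, of which 10 were higher and 3 lower in iDKO at 52 DPI and 5 higher and 8 lower at 25 DPI. Tgm2, a widely expressed transglutaminase, had 1.26 and 7.65 CPM in iDKO at 52 DPI against 0.371 and 0.627 in control, an effect of 3.16 (SE 1.05, edgeR adjusted p = 1.00). Sprr4 had 23.1 and 33.9 CPM in iDKO at 52 DPI against 8.04 and 4.94 in control, an effect of 2.13 (SE 0.87). Of 22 transcription factors of terminal differentiation, 11 were higher and 11 lower at 52 DPI, and 19 were higher and 3 lower at 25 DPI. Over all 17839 tested genes 8633 were higher and 9191 lower at 52 DPI, and 8479 and 9360 at 25 DPI. The summed level of the 22 factors at 25 DPI was 4195 and 5685 CPM in iDKO against 2904 and 5553 in control. Control replicate 1 at 25 DPI was the lowest of all 8 libraries in this sum.

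Grhl3, a factor needed for the barrier, was higher in iDKO in all 4 pairs, by 0.10 to 0.81, as were Cebpa and Zfp750. These were 3 of the 22 transcription factors, against 6.73% of all tested genes. Grhl3 had 81.9 and 84.9 CPM in iDKO at 52 DPI against 56.7 and 48.3 in control, and 74.3 and 101.7 CPM in iDKO at 25 DPI against 69.5 and 62.9 in control. The groups of Grhl3 did not overlap at either time. With iDKO higher, this held for 11.9% of all tested genes at 52 DPI and for 5.39% at 25 DPI. The effect on Grhl3 across both times was 0.54 (SE 0.26, edgeR adjusted p = 1.00). Of 11 lipid and enzyme genes of the granular layer, 9 were higher and 2 lower at 52 DPI, and 8 higher and 3 lower at 25 DPI. Alox12b, a lipoxygenase of barrier lipids, had 1.26 and 5.91 CPM in iDKO at 25 DPI against 0.327 and 0.695 in control, an effect of 2.78 (SE 1.05, edgeR adjusted p = 1.00). Of 12 basal and spinous markers, 1 was higher and 11 lower in iDKO at 52 DPI, and 10 higher and 2 lower at 25 DPI. Their summed level at 25 DPI was 56560 and 51640 CPM in iDKO against 42880 and 51850 in control, so the replicate 2 pair was nearly level. Krt15 was lower in all 4 pairs, against 6.7% of all tested genes, and Dsc1 higher in all 4, against 6.73%.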

How the data were processed

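RNA-seq was analysed from 8 epidermis libraries, grouped by the genotype and time in the labels. The authors deposited raw read counts, as a table of 54838 genes for each library with a column without regard to strand and a column for either strand. Trizol RNA and the Clontech SMART-seq v4 kit were used, per the labels' protocols. The submitters' processing notes name the builds GRCm38 and mm10 and the tools STAR 2.5.2a, DESeq2 1.24.0, Trimmomatic 0.35 and FastQC 0.11.9. The tools' settings and the annotation release are not given in the sources used. The column that ignores strand was tested.

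Symbols were matched by identifier for 54723 genes. Genes were filtered with filterByExpr over the 4 groups, scaled by TMM and tested with edgeR 4.0.16 (R 4.3.3), with 1 mean per group over all 8 libraries, or time and genotype for the effect over the 2 times. Benjamini-Hochberg adjustment ran over 17839 genes, with calls at an adjusted p under 0.05. Values per library are CPM on TMM-scaled library sizes, and log2 differences within pairs use a prior count of 2. Depth was 9824307 to 50711381 counts, which limits the rarest members. Alternatives were RLE scaling, no filter, DESeq2 1.42.0, replicate blocks, counts of the second strand only in replicate 2 libraries, and leaving out each library. The fits were run on simulated counts that kept the differences between replicate numbers. Apart from the changed genes, both libraries of a pair had the same mean there, a setting that favours the block within time. In it edgeR without a block, the main test, recovered fewer of the changed genes in every genotype comparison than DESeq2 or the fits with the block within time. The real pairs need not share a mean, so this does not measure the power of the fits on these data.

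Every group has a replicate 1 and a replicate 2 in the labels. Deviations from the group means correlated at 0.395 to 0.793 between same-numbered libraries in each of the 6 pairs of groups. The values were 0.674 and 0.793 between genotypes of one time and 0.395 to 0.502 between times, where libraries were not paired. Replicate number also separates the libraries by strand, so the correlation cannot show that iDKO and control libraries were matched. The libraries were taken as paired by number. The 35 members and the other gene lists were chosen with earlier results of these data known. Values in every library are given for members with one direction in all 4 pairs and, in each role, for up to 3 members with the highest mean CPM. From the other lists, up to 4 genes with the smallest p in a genotype comparison could be named. Some further members and genes (Cnfn, Lce1c, Krt15, Dsc1, Cebpa and Zfp750) were named after their values were seen.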

Additional observations from a re-analysis of the deposited data

Results flagged for a closer look

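Lor was singled out because both iDKO libraries were below their paired control at 52 DPI and above it at 25 DPI. The difference between the effects, -1.99 on the log2 scale (SE 1.22, edgeR adjusted p = 1.00), was not called. Flg2 was singled out for the same reason, with a difference of -4.45 (SE 2.10, edgeR adjusted p = 1.00), also not called.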

How the results depend on the processing

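No member was called under any alternative run, and edgeR with RLE scaling, with the second-strand column, with a replicate block over all libraries or without any 1 library called 0 genes in every comparison. Without the low-count filter edgeR called 25 genes at 52 DPI, 8 at 25 DPI, 16 across both times, 19 for the difference between the times, 37 for time in iDKO and 62 for time in control. DESeq2 called 1, 2 and 8 genes for the genotype at 52 DPI, at 25 DPI and across both times, 11 for time in iDKO and 13 for time in control. With the replicate block within time, edgeR called 1 gene across both times, and DESeq2 called 35 genes at 52 DPI, 96 at 25 DPI, 70 across both times and 38 for the difference. That block changed no call of a member and could not be fitted for 52 against 25 DPI, which lies between its terms. Leaving out a pair was chosen after seeing the data. Members higher in every remaining pair were 3 (11.1% of all tested genes) and 4 (12.6%) without the replicate 1 and 2 pairs at 52 DPI, and 8 (15.2%) and 3 (11%) without those at 25 DPI, against 2 (6.73%) with all pairs. Members lower were 0 (12.8%), 0 (11.6%), 1 (16.9%) and 3 (11.7%) in the same order, against 0 (6.7%). Without Dmkn, Krtdap and Ppl, the log2 ratio of the summed share, iDKO over control, was 0.61 in the replicate 2 pair at 52 DPI, and -0.53 and 0.37 in the replicate 1 and 2 pairs at 25 DPI. The direction of the fold change held under every alternative for 13 of 29 members at 52 DPI, 5 at 25 DPI and 12 across both times, among them Cdsn in all 3. The causes of these changes were not tested. Lce and S100-fused type genes with few reads are limited by depth.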
